A study of Mus musculus with 168 samples.

Results

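The 9 genes described here, Mbp, Mobp, Mal, Mag, Mog, Cldn11, Cnp, Opalin and Ugt8a, build or maintain the myelin that oligodendrocytes wrap around axons of the brain. Every probe set that the array annotation assigns to 1 of them alone was taken, which gave 25 of 45037 probe sets and 9 of the 18193 genes with a probe set of their own. Mbp had 8 probe sets, Mobp 5, Cnp 3, Mal, Opalin and Ugt8a 2 each, and Mag, Mog and Cldn11 1 each. The mean intensity of 23 of the 25 lay above the median of all probe sets, and where a gene had several, the one with the highest mean stands for it unless another is named.

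Male C57BL/6 mice, 8 to 9 weeks old, were kept at 8% oxygen for 1 hour (H1) or 3 hours (H3), or were returned to room air for 1, 3, 6, 12 or 24 hours after the 3 hours (R1, R3, R6, R12 and R24). Controls were sham-treated mice that spent the same 3 hours in the chamber in room air, and in the methods these had another 24 hours in the home cage. RNA of cerebellum, pons and medulla, midbrain, thalamus, striatum, hippocampus and cerebral cortex was hybridised to 1 array each, with 3 arrays for every region and time point, which makes 56 groups. By the methods, 3 mice were used per time point and for the sham group, 24 in all, so the 3 arrays of a group stand for 3 animals, and the 7 regions of a time point come from the same 3 animals and are not independent of each other. The labels number the arrays of a group but do not say which arrays of different regions share a mouse. All time points share 1 control group. By the methods, the time from entering the chamber to tissue collection was that of the shams at R24 only, while the labels name the controls time point 0 hr. The clock hour is not given in the sources used here. So at the other time points oxygen, time since handling and hour of the day cannot be told apart. If the controls were collected at 0 hours, this holds for R24 as well. In whole tissue, fewer oligodendrocytes and less RNA per oligodendrocyte cannot be told apart either.

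Myelin is a stack of oligodendrocyte membrane, and its make-up is unusual in being rich in lipid and in a few abundant proteins. Mbp and Mobp are small basic proteins that hold the inner faces of the membrane together, Mal is a membrane protein of lipid-rich domains, Cldn11 forms the tight junctions of the sheath, and Mag and Mog are adhesion molecules of the immunoglobulin family at its inner and outer surface. Cnp is an enzyme of the cytoplasmic channels, Opalin is a membrane glycoprotein of oligodendrocytes, and Ugt8a makes galactosylceramide, the main glycolipid of myelin. White matter tracts hold most of the oligodendrocytes of the brain, so the share of white matter in a dissected piece bears on every one of these transcripts.

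The dissections carried the transcripts of their own region. The summed intensity of the marker list of a region was higher on all 24 arrays of that region than on any of the other arrays for 7 of 7 lists, and 57 of 66 marker genes had their highest control mean in the region they mark. The sum of the cortex list was 4079 to 4627 on its own arrays against at most 3445 elsewhere, and 4 of its 8 genes had their highest control mean there. That of the thalamus list was 6442 to 8626 on its own arrays against at most 5479 elsewhere. Arrays of 1 region still differed in the transcripts of other tissue that they carried. On those of pons and medulla the summed cerebellum list ran from 3875 at R6 to 7802 at R24. The summed choroid plexus list ran there from 417 at H1 to 8425 at R3.

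Upstream sequences are shown for Opalin and Ugt8a, the genes whose levels moved most over time, and for Mobp, which had the most matches to the 7 motifs searched. Each runs 250 bases 5′ to 3′ up to the transcription start, from RefSeq on GRCm38.p6, and the stretches of 8 of the 9 genes were used. Capitals mark ACAAAG (the SOX motif), CATCTG and CAGCTG (E-boxes), ACGTG and GCGTG (the core of the hypoxia response element), GGGCGG (the GC box) and ATTGTT (a second SOX motif) on either strand.
Opalin: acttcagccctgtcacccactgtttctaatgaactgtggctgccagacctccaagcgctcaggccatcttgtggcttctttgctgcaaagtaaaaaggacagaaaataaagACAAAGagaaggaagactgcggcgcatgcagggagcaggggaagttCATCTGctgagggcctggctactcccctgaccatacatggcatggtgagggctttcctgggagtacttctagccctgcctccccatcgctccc
Ugt8a: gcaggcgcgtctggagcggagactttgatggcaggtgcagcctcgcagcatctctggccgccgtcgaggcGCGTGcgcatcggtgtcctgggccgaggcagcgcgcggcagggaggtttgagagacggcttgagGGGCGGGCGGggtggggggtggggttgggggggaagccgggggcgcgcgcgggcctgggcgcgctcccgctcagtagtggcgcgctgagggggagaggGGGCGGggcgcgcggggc
Mobp: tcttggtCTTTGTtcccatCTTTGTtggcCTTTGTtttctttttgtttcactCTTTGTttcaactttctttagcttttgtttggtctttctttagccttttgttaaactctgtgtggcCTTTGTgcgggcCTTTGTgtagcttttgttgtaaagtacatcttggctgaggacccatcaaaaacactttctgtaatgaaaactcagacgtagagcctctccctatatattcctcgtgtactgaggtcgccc
The Opalin stretch lies at chr19:41077114-41077363 on the minus strand, that of Ugt8a at chr3:125938653-125938902 on the minus strand and that of Mobp at chr9:120149492-120149741 on the plus strand. ACAAAG occurred 6 times upstream of Mobp and 1 time each upstream of Opalin, Mag and Cnp, and 16.5% of all 32841 promoter stretches of this length hold it. GCGTG occurred upstream of Ugt8a and Cnp (28.2% of all), GGGCGG upstream of the same pair (32.7%, with 3 matches in Ugt8a, of which the first and the next overlap), and CATCTG upstream of Opalin alone (14.4%). None of the 8 stretches held ACGTG (16.6% of all), CAGCTG (13% of all) or ATTGTT (9.43% of all). The Ugt8a stretch is 76.8% G and C and the Opalin stretch 54.4%, against a median of 52.4% over all promoters. These matches describe letters in a window and say nothing about which factor binds there.

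In control mice the 9 genes as a group stood highest in the brainstem pieces (midbrain, pons and medulla) and lowest in cerebral cortex. With each gene centred on its own mean of log2(intensity + 16) over the 7 regions, the median of the 9 genes was 0.63 in midbrain, 0.60 in pons and medulla, 0.23 in thalamus, 0.08 in striatum, -0.35 in hippocampus, -0.41 in cerebellum and -0.75 in cerebral cortex. Levels differed between regions for 22 of the 25 probe sets and for 8 of the 9 genes (limma F-test over 7 region means, Benjamini-Hochberg adjusted p under 0.05), where 41.4% of all probe sets passed the same test. Fold differences between regions below were taken from the difference in log2(intensity + 16) and are not ratios of the intensities printed beside them.

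Mag, which sits on the innermost wrap facing the axon, had the widest range among the probe sets that stand for the genes. Its intensity was 1430, 1647 and 1773 on the arrays of pons and medulla, against 358, 401 and 371 on those of cerebral cortex, and the means in between were 1254 in midbrain, 965 in thalamus, 802 in striatum, 592 in cerebellum and 544 in hippocampus. Pons and medulla stood 4.15-fold above cerebral cortex (log2 difference 2.05, SE 0.08, adjusted p = 6.48e-12), with no overlap, and of the neighbours in this order only cerebellum and hippocampus did not differ beyond their spread. Mog, on the outermost surface, was 613, 652 and 758 in pons and medulla, against 171, 165 and 158 in cerebral cortex, a 3.8-fold difference (log2 1.93, SE 0.13, adjusted p = 3.79e-09).

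Among the genes of compact myelin, Mobp was also highest in pons and medulla and lowest in cerebral cortex. It was 3395, 4081 and 4066 in pons and medulla, against 1380, 1478 and 1291 in cerebral cortex (2.76-fold, SE of the log2 difference 0.09, adjusted p = 1.98e-09). Its probe set 1436263_at had the widest range of all 25, 4.27-fold, at 1015, 922 and 1320 in pons and medulla against 194, 245 and 287 in cerebral cortex. The fifth Mobp probe set, 1441308_at, lay between 1.47 and 28.6 over all arrays and carries little signal.

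In the probe sets that stand for them, Mal and Opalin put cerebellum last. Mal was 2299, 2079 and 2358 in midbrain, against 673, 756 and 903 in cerebellum (2.87-fold, adjusted p = 3.16e-08), and cerebral cortex, at 879, 901 and 776, did not differ from cerebellum beyond its spread. The second Mal set, 1432558_a_at, was highest in pons and medulla. It was level in the lowest regions, with a centred log2 of -1.003 in cerebral cortex and -1.001 in cerebellum. Opalin was 432, 312 and 359 in midbrain, against 117, 85.5 and 90.6 in cerebellum (3.37-fold, log2 1.75, SE 0.16, adjusted p = 1.62e-07). Hippocampus held more Opalin than cerebellum, at 211, 193 and 220 against the values just given (log2 0.99, SE 0.16, adjusted p = 0.000125), while for Mag the same difference was -0.12 (SE 0.08, adjusted p = 0.369). That genes differ in this contrast was not itself tested.

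Cldn11, Cnp and Ugt8a had the same highest and lowest region as Mag. Ugt8a was 1197, 1399 and 1259 in pons and medulla, against 328, 334 and 271 in cerebral cortex (3.99-fold, adjusted p = 8.32e-10). Cldn11 was 920, 1355 and 1245 in pons and medulla, against 468, 457 and 421 in cerebral cortex (2.53-fold, adjusted p = 6.06e-07), and Cnp was 2838, 2838 and 3077 against 1552, 1752 and 1278 in the same regions (1.92-fold, adjusted p = 8.76e-06). All 3 genes were separated between these regions with no overlap, although 1 Cldn11 array of pons and medulla lay below the 3 of midbrain, which read 1190, 1106 and 1132.

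Mbp, the classic marker of compact myelin, gave the least even picture. Its brightest probe set, 1433532_a_at, averaged 5017 ± 217 in striatum and 4423 ± 102 in hippocampus (SD, n = 3), a 1.13-fold range that did not pass the F-test (adjusted p = 0.588). The probe sets 1419646_a_at and 1456228_x_at ranged 1.27-fold and 1.44-fold, and 1436201_x_at, 1451961_a_at and 1454651_x_at ranged 1.85-fold, 2.17-fold and 3.7-fold, each of these last 3 highest in pons and medulla and lowest in cerebral cortex. For 1454651_x_at the arrays read 4184, 4323 and 4117 in pons and medulla, against 1074, 1529 and 871 in cerebral cortex. The brightest Mbp set ranked in the top 0.00888% of all probe sets, and the part that the height of its signal plays in its narrow range was not tested.

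The remaining Mbp probe sets were not highest in midbrain or in pons and medulla. Their mean intensities, 208 and 199, lay below those of the other Mbp sets but ranked 19.3% and 20% from the top of all probe sets. For 1425264_s_at the arrays read 290, 364 and 324 in hippocampus, against 125, 111 and 126 in pons and medulla, a 2.5-fold difference (adjusted p = 3.61e-07). For 1425263_a_at they read 246, 268 and 234 in cerebral cortex, against 103, 117 and 113 in cerebellum (2.09-fold, adjusted p = 0.000219). Across all 56 group means, the first of these correlated at r = -0.61 with the mean profile of the 9 genes, where the other Mbp sets lay between 0.25 and 0.97. These r values describe groups that share regions and the array platform. Which Mbp transcripts each set reads was not examined.

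**Figure D1:**
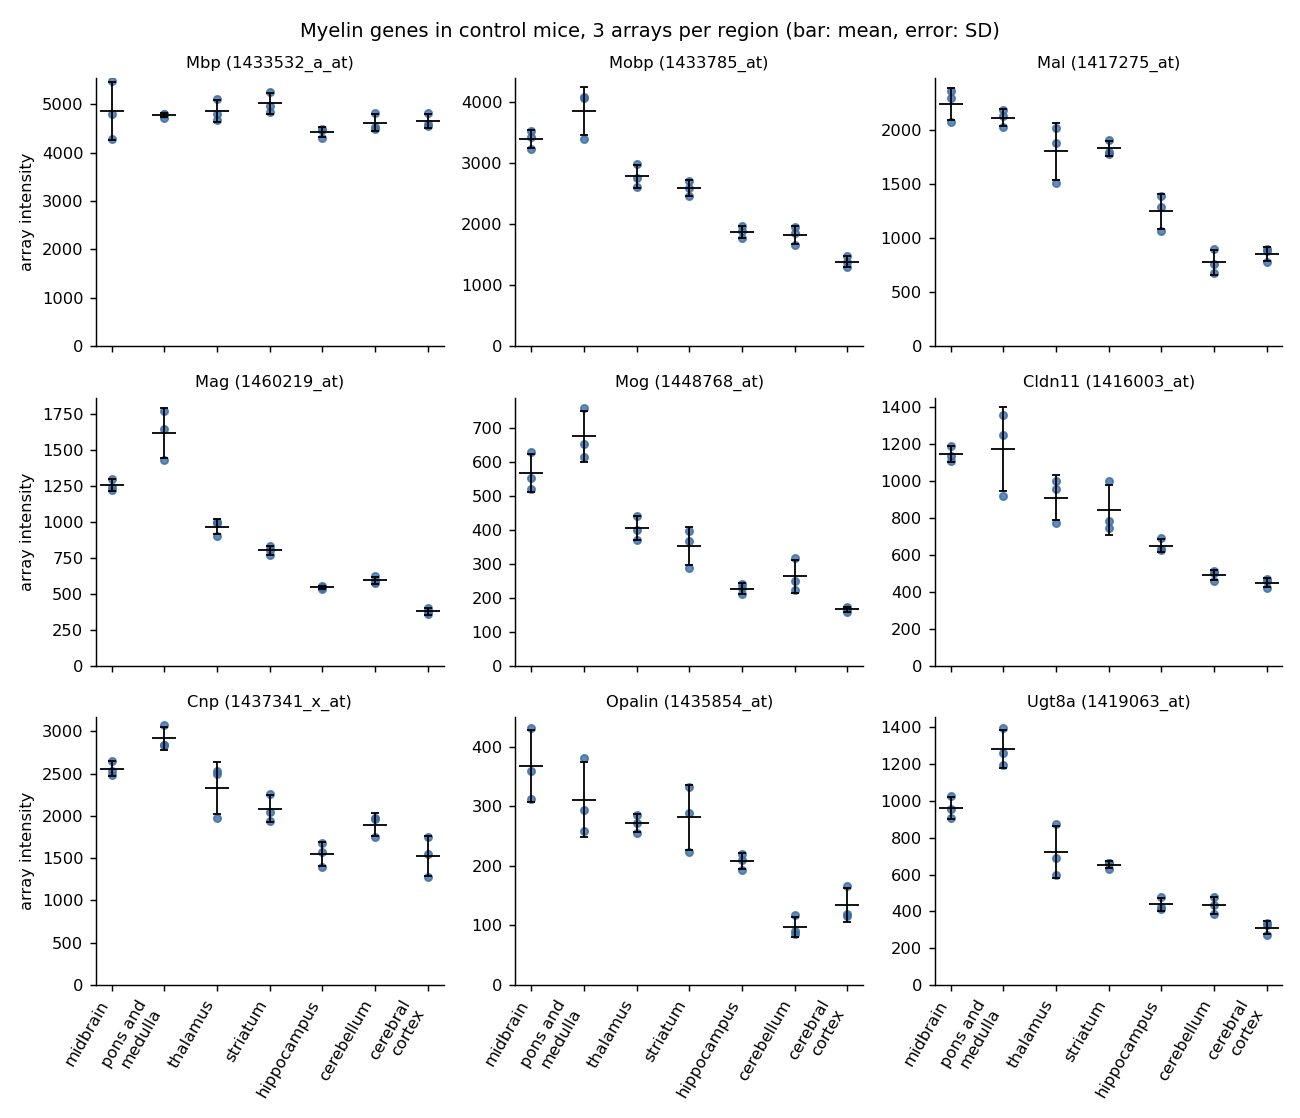
Array intensity of the probe set that stands for each of the 9 genes (vertical axes, starting at 0) in the 7 regions of control mice, ordered by the median level of the genes; points are the 3 arrays, the bar is their mean and the error bar their SD. Mag lies at 1430 to 1773 in pons and medulla and at 358 to 401 in cerebral cortex, Opalin is lowest in cerebellum, and the Mbp set is nearly level.

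The order of regions was taken from these control arrays, so the tests between neighbours describe how sharp each step is. Between midbrain and pons and medulla 1 of 25 probe sets differed, that of Mag, lower in midbrain (background 1.73%). Pons and medulla exceeded thalamus for 11 (8.07%), thalamus and striatum differed for 3, 1 of them higher in thalamus (17.6%), and striatum exceeded hippocampus for 16 (10.6%). Hippocampus exceeded cerebellum for 6 (24.5%), which include Opalin, both Mal sets and Cldn11. Cerebellum differed from cerebral cortex for 13, 11 higher and 2 lower (26.9%), the lower ones being the Mbp sets 1425264_s_at and 1425263_a_at. The share of members called was thus above the background at the steps below pons and medulla, below striatum and below cerebellum, and near or under it at the others.

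Averaged over the regions, most of the same probe sets changed less over time than they differed between regions. The SD of the 7 control region means had a median of 0.56 on the log2 scale over the 25 probe sets and of 0.19 over all probe sets. The largest change from control at any time point, averaged over the regions, had a median of 0.13 in both, and the SD between arrays of 1 group had a median of 0.18 over the members and 0.21 over all probe sets. The spread between regions exceeded the largest averaged change for 23 of 25, the exceptions being the brightest Mbp set and the dim second Opalin set, 1447487_at. Mog had a region SD of 0.69 beside a largest change of 0.10, Cldn11 of 0.54 beside 0.07, and Mag of 0.71 beside 0.11. The values came closest for Opalin 1435854_at, with 0.64 beside 0.56, and for Ugt8a they were 0.70 beside 0.40. Within a single region, where a change rests on 3 arrays against 3, the largest change exceeded the region SD for 10 of 25, as for Opalin 1435854_at at 0.67 beside 0.64 and for Mbp 1425263_a_at at 0.69 beside 0.38. The share of all probe sets for which either held is not given here. Their medians, 0.19 between regions and 0.13 for the largest averaged change, stand in the same order as those of the members.

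**Figure D2:**
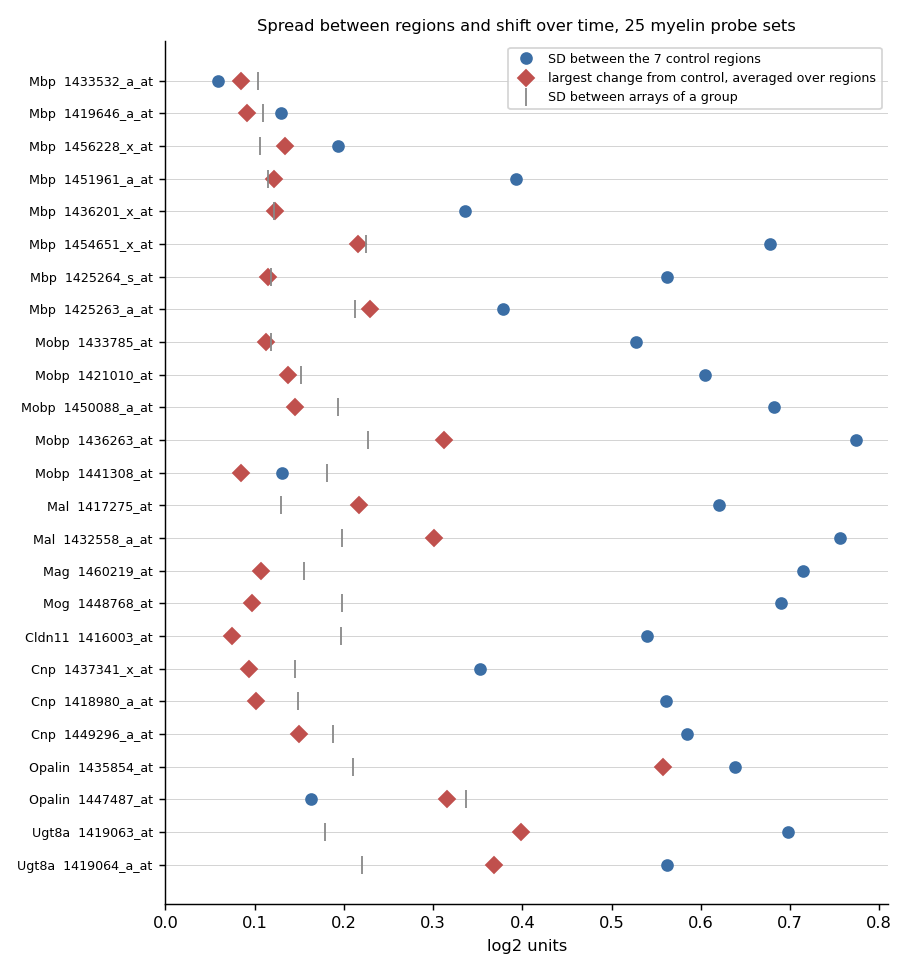
For each of the 25 probe sets, the SD between the 7 control regions (circles), the largest change from control at any time point averaged over regions (diamonds) and the SD between arrays of 1 group (ticks), in log2 units. The circle lies right of the diamond for 23 of 25 sets, and the diamonds of Opalin 1435854_at (0.56) and of the Ugt8a sets (0.40 and 0.37) lie farthest right.

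Within single regions few members passed. Of 175 pairs of a probe set and a region, 4 passed the F-test over the 7 time points: Opalin in cerebral cortex (adjusted p = 0.00744), in pons and medulla (adjusted p = 0.0405) and in cerebellum (adjusted p = 0.045), and the Mal set 1432558_a_at in cerebral cortex (adjusted p = 0.0299). The background of this test was 2.41% in cerebellum, 1.01% in thalamus, 0.828% in cerebral cortex, 0.802% in hippocampus, 0.684% in midbrain, 0.6% in striatum and 0.38% in pons and medulla. At single time points 2 of 1225 tests passed, both of Opalin in cerebral cortex, and 119 had an unadjusted p under 0.05. The methods' t-test with Benjamini-Hochberg adjustment called 0 of the 1225, with 113 at an unadjusted p under 0.05. The share of all probe sets called at 1 or more time points was 1.75% in cerebellum, 0.573% in striatum, 0.522% in thalamus, 0.508% in hippocampus, 0.497% in cerebral cortex, 0.4% in midbrain and 0.2% in pons and medulla.

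In cerebral cortex Opalin was 215, 241 and 205 at H3, against 167, 115 and 120 in controls, and every H3 array lay above every control array. The change was 0.67 on the log2(intensity + 16) scale (SE 0.12, adjusted p = 0.0176, background 0.233%). At R1 it was 216, 229 and 206 against the same controls (0.65, SE 0.12, adjusted p = 0.0224, background 0.315%). Leaving out 1 array kept the direction but often ended the call: at H3 the adjusted p was 0.107 without control replicate 2, 0.087 without control replicate 3, 0.0547 without H3 replicate 1 and 0.104 without H3 replicate 2. At R1 it was 0.129 and 0.0721 without the same controls and 0.0813, 0.0877 and 0.0597 without R1 replicate 1, 2 or 3.

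In the cortical pieces the mean of the other myelin genes overlapped the controls at H3, but not every gene did. All H3 arrays lay above the controls for Mag (402.3, 493.5 and 500.9 against 357.8, 400.8 and 370.6). The same held for Mog (181.6, 206.4 and 180.4 against 171.4, 165.4 and 158.3) and Mal (941.7, 1077 and 988.9 against 879, 901.4 and 776.4). Cldn11 overlapped them (410.5, 532.2 and 561 against 468.4, 456.9 and 420.8). None of the genes just named passed at H3 in cortex, and the arrays of Mbp, Mobp and Cnp are not listed here. The share of all probe sets whose H3 arrays lay above the controls in cortex is not given here, for these genes or for Opalin. The mean of the 7 genes other than Opalin and Ugt8a lay 0.03 to 0.25 above the control mean on the 3 H3 arrays and 0.09 to 0.15 above it on the R1 arrays, where control arrays ran from -0.09 to 0.07, so that 1 H3 array lay within the control range. Set against that mean on the same array, Opalin still stood 0.33 to 0.62 above control at H3 and 0.46 to 0.58 above at R1, and the control arrays spanned -0.24 to 0.28. Of 21 other myelin proteins listed, 0 passed at H3 in cortex (background 0.233%) and their median change was 0.15, with a summed intensity of 9685 to 10660 at H3 against 9040 to 10010 in controls. The summed peripheral myelin markers ran from 338 to 443 at H3 against 287 to 316 in controls, and choroid plexus markers from 381 to 1319 against 625 to 3237. Pmp2 and Ncmap, of the 4 peripheral markers, had a mean intensity under 16 in control cortex. Their part in the Opalin change was not tested.

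Mal 1432558_a_at, the other cortical call, read 495, 518 and 469 in controls, 452, 432 and 473 at H1, 558, 823 and 637 at H3, 762, 694 and 678 at R1, 753, 727 and 692 at R3, 597, 607 and 599 at R6, 506, 509 and 423 at R12, and 455, 681 and 588 at R24. The arrays of H3, R1, R3 and R6 all lay above the controls, and the share of all probe sets for which this held is not given here. The largest change, at R3, was 0.54 (SE 0.13), and no single time point passed (adjusted p = 0.29 there).

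Opalin went up, down and up again over the time points in regions where it is abundant and where it is scarce. In midbrain, where it was highest, it averaged 368 ± 60.3 in controls, 439 ± 75.5 at H1, 500.3 ± 42.9 at H3, 507 ± 60.2 at R1, 352 ± 86.8 at R3, 281 ± 28.6 at R6, 404 ± 41.5 at R12 and 498 ± 56.5 at R24 (SD, n = 3). In cerebellum, where it was lowest, it averaged 97.7 ± 17.1 in controls, 138 ± 10.5 at H1, 146 ± 15.6 at H3, 149 ± 13.5 at R1, 102 ± 19.5 at R3, 88.8 ± 7.84 at R6, 148 ± 33.5 at R12 and 134 ± 24.8 at R24. Both regions had their lowest mean at R6 and higher means on either side of it, at R1 and at R12 and R24.

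At R1 the 3 Opalin arrays lay above the 3 controls in 7 of 7 regions, which held for 0.124% of all probe sets and for no other member. These 7 regions come from the same mice. The R1 arrays read 445, 514 and 429 in pons and medulla, 449, 569 and 503 in midbrain, 364, 475 and 485 in thalamus, 346, 454 and 374 in striatum, 295, 356 and 302 in hippocampus, 216, 229 and 206 in cerebral cortex, and 138, 164 and 144 in cerebellum. At R6 they read 242, 257 and 201.3 in pons and medulla, 265, 314 and 263 in midbrain, 182, 273 and 226 in thalamus, 184, 266 and 215 in striatum, 161, 214 and 161 in hippocampus, 105, 136 and 127 in cerebral cortex, and 85.8, 97.6 and 82.8 in cerebellum. Every R6 array was below every R1 array in 7 of 7 regions, as for 0.107% of all probe sets, and by R24 every array was above those of R6 in 7 of 7, as for 0.0178%. The difference R6 minus R1 ran from -0.94 in pons and medulla to -0.65 in cerebellum, and R24 minus R6 from 0.51 in cerebellum to 0.85 in striatum. These pairs of time points were chosen after their values were seen and carry no test.

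**Figure D3:**
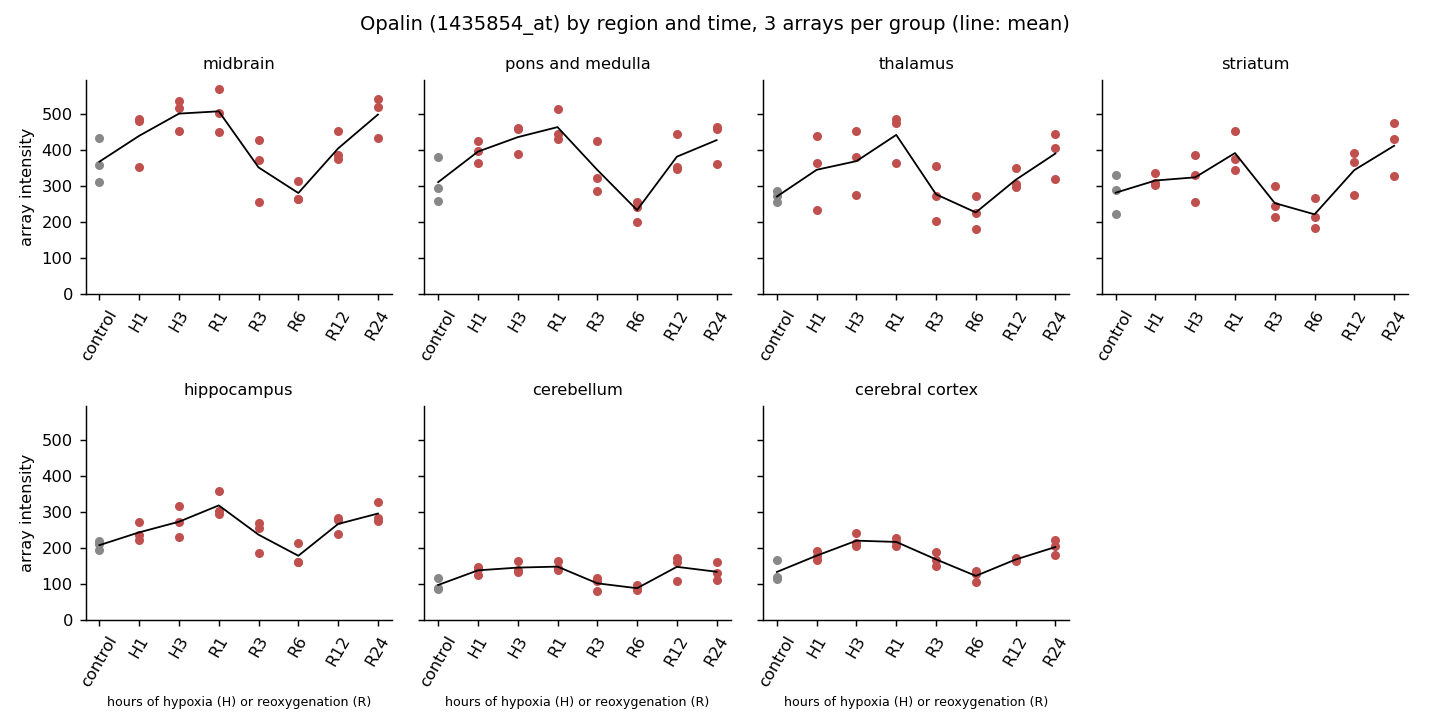
Array intensity of Opalin 1435854_at (vertical axis, starting at 0, shared by the panels) at control and the 7 time points in each region; points are the 3 arrays of a group, grey for control, and the line joins the means. In every panel R1 lies above control, R6 lies below R1, and R24 lies above R6, from 445, 514 and 429 at R1 in pons and medulla to 242, 257 and 201.3 at R6.

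Averages over the 7 regions rest on 3 mice per time point, and the fit had the labelled number within a time point as a random block, which allows for shared mice only if a number marks a mouse. The block had 1 correlation for all probe sets, 0.0369, so the regions entered almost as independent arrays. For Opalin at R6, replicate 2 read highest in every region. The SE and adjusted p of the averages therefore measure mainly the spread between arrays, not that between mice. Averaged in this way, Opalin was higher than control at H1 by 0.30 (SE 0.07, adjusted p = 0.00536), at H3 by 0.44 (adjusted p = 5.1e-07), at R1 by 0.56 (adjusted p = 1.05e-10), at R12 by 0.30 (adjusted p = 0.00873) and at R24 by 0.47 (adjusted p = 2.13e-06). The change at R3 was 0.06 (adjusted p = 0.787) and that at R6 was -0.25 (adjusted p = 0.0573), and all 7 regions were above control at H1, H3, R1, R12 and R24 and below it at R6. With the mean of the 7 other myelin genes on the array as a covariate, added after seeing the data, the values were 0.33, 0.39, 0.47, -0.04, -0.25, 0.31 and 0.40 in order of time, and R6 then passed (adjusted p = 0.00585). Over the 12 alternatives R6 ran from -0.42 to -0.11 with an adjusted p up to 0.851, and it passed in 5. The second, dim Opalin set changed by 0.32 at R1 (SE 0.11, adjusted p = 0.062). Without replicate 2 or without replicate 3 the H1 call was lost (change 0.17 to 0.47 over the alternatives), and without any of the 3 numbers the R12 call was lost (adjusted p up to 0.138).

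Ugt8a, which makes the galactolipid of myelin, was lower than control at R1, R3 and R6, averaged over the regions, and its change at R12 did not pass. At R3 it was 258, 261 and 230 in cerebral cortex against 328, 334 and 271 in controls, 367, 361 and 302 in hippocampus against 413, 477 and 422, and 494, 517 and 329 in striatum against 663, 664 and 632. In thalamus it was 544, 566 and 570 at R3 against 599, 878 and 688 in controls, and in midbrain 722, 834 and 744 against 906, 1028 and 954. In pons and medulla it was 890, 1073 and 1007 against 1197, 1399 and 1259 in controls, and in cerebellum 332, 383 and 363 against 387, 478 and 433. Every R3 array was below every control array in 7 of 7 regions, which 0.0111% of all probe sets did and no other member.

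The averaged change of Ugt8a was -0.01 at H1, 0.01 at H3, -0.18 at R1 (SE 0.06, adjusted p = 0.0387), -0.36 at R3 (adjusted p = 9.03e-06), -0.40 at R6 (adjusted p = 1.64e-06), -0.04 at R12 and 0.04 at R24. At R12 all arrays still lay below the controls in midbrain, at 851, 887 and 898 against 906, 1028 and 954, and in pons and medulla, at 1122, 1114 and 1170 against 1197, 1399 and 1259. The second set, 1419064_a_at, changed by -0.23, -0.29 and -0.37 at R1, R3 and R6 (adjusted p = 0.0244, 0.0074 and 0.000879). At R6 the 7 regions ran from -0.58 in striatum to -0.25 in cerebral cortex, and Ugt8a arrays there overlapped the controls in cerebral cortex and thalamus only. The share of all probe sets with as little overlap at R6 or R12 is not given here. Set against the 7 other myelin genes on the same array, the R6 means were -0.27 in cerebral cortex, -0.33 in midbrain, -0.35 in cerebellum, -0.41 in thalamus, -0.41 in pons and medulla, -0.49 in hippocampus and -0.54 in striatum. The R1 call was lost with arrays centred on their medians and without replicate 2 (-0.28 to -0.10 over the alternatives), and that of the second set also without replicate 1. The second set lost R3 without replicate 2 or replicate 3 and R6 without replicate 1. No single region passed for Ugt8a at any time point.

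**Figure D4:**
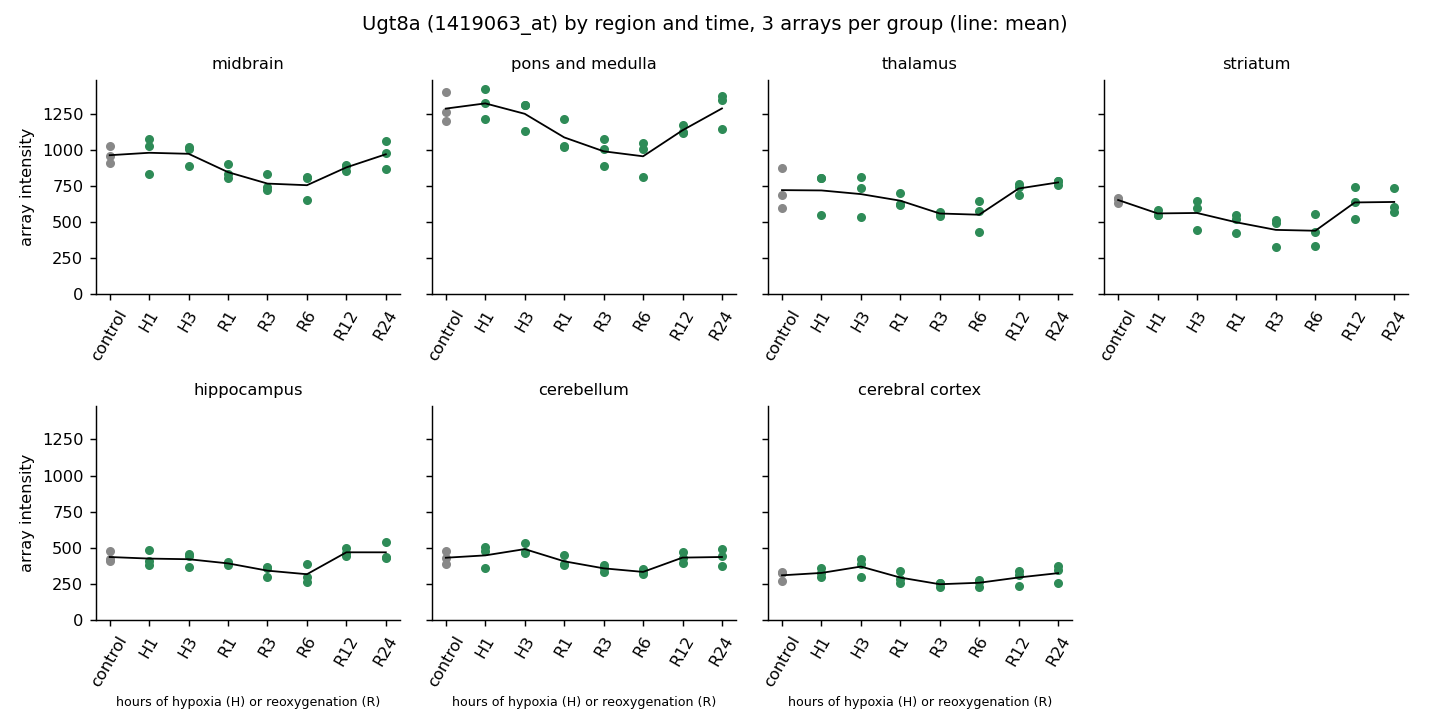
Array intensity of Ugt8a 1419063_at (vertical axis, starting at 0, shared by the panels) at control and the 7 time points in each region; points are the 3 arrays of a group, grey for control, and the line joins the means. The R3 arrays lie below the controls in all 7 panels, as in pons and medulla at 890, 1073 and 1007 against 1197, 1399 and 1259.

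Across all members, 17 of 25 probe sets and 5 of 9 genes passed the averaged F-test over 7 time points, where 23.6% of all probe sets did. This and the other shares of all probe sets include dim sets and were not matched for intensity, while 23 of the 25 members lay above the median. Single time points called 1 at H1 (background 1.15%), 1 at H3 (6.2%), 5 at R1, 3 higher and 2 lower (10%), 5 at R3, 3 higher and 2 lower (3.19%), 3 at R6, 1 higher and 2 lower (0.708%), 2 at R12 (1.71%) and 1 at R24 (0.226%). Of these 18 calls 12 were higher and 6 lower (66.7% higher), and with each array centred on its median 18 were higher and 4 lower (81.8% higher). Beside Opalin and Ugt8a, probe sets of Mal, Mobp and Mbp were called. Mal was higher by 0.16 at R1 (SE 0.04, adjusted p = 0.0113) and 0.22 at R3 (adjusted p = 0.000467), with all 7 regions above control at both, and its second set by 0.30 at R3 (adjusted p = 0.00131). The Mobp set 1436263_at was higher by 0.21, 0.26 and 0.31 at R1, R3 and R6 (adjusted p = 0.0497, 0.0289 and 0.0124), from 0.12 in midbrain to 0.78 in cerebral cortex at R6, while the Mobp set that stands for the gene changed by 0.11 at most. The Mbp set 1456228_x_at was higher by 0.13 at R12 (adjusted p = 0.0357). Mag, Mog, Cldn11 and Cnp were called at no single time point.

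These smaller changes depended on the setting. The R1 calls of Mal and of Mobp 1436263_at were lost with quantile normalization and without replicate 1 or replicate 2. Both were also lost with the mean of the 7 genes other than Opalin and Ugt8a as a covariate. That mean includes this Mal set and the brightest Mobp set, so for these calls it does not measure other genes alone. The adjusted p ran up to 0.291 and 0.526 over the alternatives. The Mbp call was lost with quantile normalization, with centred arrays and without any of the 3 replicate numbers. The R3 call of Mobp 1436263_at was lost with centred arrays, without replicate 1 or 2 and with the covariate (0.13 to 0.41, adjusted p up to 0.569), and its R6 call without replicate 1 or 2 (adjusted p up to 0.787). The R3 call of Mal held under 12 of 12 alternatives (0.13 to 0.23), and that of its second set under 11, being lost without replicate 1 (adjusted p = 0.0774).

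**Figure D5:**
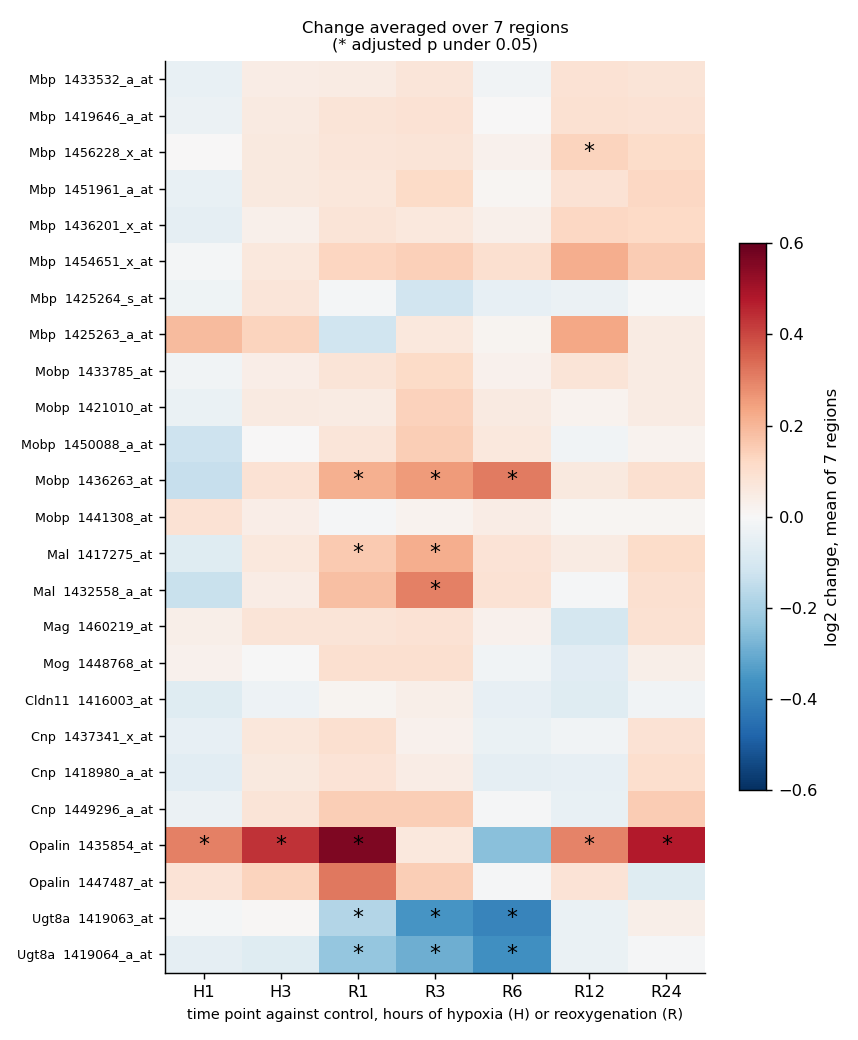
Change from control averaged over the 7 regions for each of the 25 probe sets (rows) at the 7 time points (columns), in log2 units, with red for higher and blue for lower than control and an asterisk where the adjusted p was under 0.05. Opalin 1435854_at is red at H1, H3, R1, R12 and R24 (0.30 to 0.56), both Ugt8a sets are blue from R1 to R6 (-0.18 to -0.40), and most other rows are pale.

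The changes could not be told apart between regions by a test of the difference itself. Of the 25 probe sets, 0 passed limma's F-test of region by time over 42 contrasts (background 0.107%), with 1 at an unadjusted p under 0.05. At H3 alone 0 passed (0.0222%, 1 unadjusted), and at R1 alone 0 passed (0.135%, 0 unadjusted). For Opalin the region by time test gave an unadjusted p of 0.983 and an adjusted p of 1 in the limma fit, so its call at H3 in cerebral cortex and not elsewhere is not shown to be particular to cortex.

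Arrays of 1 region and time point differed in a way the myelin genes shared. After removing the means of the 56 groups, the deviations of the 9 genes over all arrays correlated with a median r of 0.47, highest for Cldn11 and Mag (0.80), Mag and Ugt8a (0.77) and Cldn11 and Mog (0.76). The brightest Mbp set stood apart, with a median r of -0.19. The mean of the 7 genes other than Opalin and Ugt8a varied within groups by an SD of 0.14 in striatum, 0.15 in thalamus and 0.11 in hippocampus, and of 0.06 in midbrain, 0.07 in pons and medulla, 0.08 in cerebral cortex and 0.10 in cerebellum. In thalamus at H1 it ran from -0.23 to 0.17 around the control mean, and Opalin on the same arrays read 234, 437 and 363. The largest group mean of the 7 genes was 0.17, at R3 in hippocampus, and the lowest was -0.13, at H1 in striatum. Over the 24 arrays of a region these deviations correlated with those of the other myelin proteins at r between 0.32 in pons and medulla and 0.94 in thalamus, and with those of neuron markers at -0.41 in striatum and 0.59 in cerebellum. With striatum markers the r ran from 0.09 in midbrain to 0.65 in pons and medulla, and with meninges markers from -0.08 in striatum to 0.71 in thalamus. With the marker list of the region itself it ran from -0.51 in hippocampus to 0.25 in striatum. The part of neighbouring tissue in these deviations was not tested. These arrays share tissue pieces and hybridisations, and what a piece of tissue held was not measured apart from its RNA.

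The genes whose levels over the 56 region and time point means most resembled the mean profile of the 9 were Prr18 (Pearson r 0.99), Bcas1 (0.98), Isoc1 (0.98), Sptbn1 (0.98), Evi2a (0.98), Qdpr (0.98), Tspan2 (0.97), Gpr37 (0.97), Sirt2 (0.97) and Myrf (0.97), out of 11345 genes ranked. Several of these are known from oligodendrocytes, among them Myrf, the transcription factor that switches on myelin genes, and the tetraspanin Tspan2. Of the members themselves, Mobp lay at 0.99, Cldn11, Mag and Mog at 0.98, Ugt8a at 0.95, Mal and Cnp at 0.94, Opalin at 0.86 and the brightest Mbp set at 0.51. Members are part of the profile they were set against.

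Other genes of myelin and of its cells, from lists chosen for the tissue with earlier results of these data known, were read in the same averaged fit. Of 21 genes of myelin lipid synthesis 15 passed the averaged F-test, against 23.6% of all probe sets. Fa2h, which makes the hydroxylated fatty acids that Ugt8a builds into galactosylceramide, changed by -0.37 at R3 (SE 0.07, adjusted p = 2.97e-05) and by -0.28 at R6 (adjusted p = 0.011). Sptlc2, a subunit of the first enzyme of sphingolipid synthesis, was lower at H1, H3, R1, R3 and R6, most at R1 (-0.27, SE 0.04, adjusted p = 1.92e-08). Mvd, of cholesterol synthesis, was higher at R3 by 0.25 (adjusted p = 0.000405). At R6 2 of the 21 passed (background 0.708%), Fa2h and Sptlc2, both lower, and the median change of the 21 was -0.03.

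Of 15 oligodendrocyte regulators 12 passed the averaged F-test (background 23.6%). Not all of these followed the mean profile of the members over the regions and time points. The r was -0.93 for Yy1, -0.4 for Zeb2, 0.21 for Id4, 0.21 for Hes5 and 0.26 for Zfp24. The other regulators that passed lay between 0.54 (Sox2) and 0.97 (Myrf). Olig2, which specifies the lineage, was higher at H3 by 0.26 (SE 0.06, adjusted p = 0.00251) and at R1 by 0.24 (adjusted p = 0.00493), and changed by -0.50 at R3 (adjusted p = 9.42e-10). Hes5, a Notch target that astrocytes also express, changed by -0.59 at H3 and -0.71 at R1 (adjusted p = 1.2e-07 and 1.5e-10). Olig1 was higher at H3 by 0.15 and at R1 by 0.13 (adjusted p = 0.00477 and 0.00826). Yy1 changed by -0.13 and -0.17 at the same times (adjusted p = 0.000219 and 7.87e-07). Nkx2-2 changed by -0.19 at H3 (adjusted p = 0.0246) and Sox2 by -0.23 at R1 (adjusted p = 0.00718). No other regulator passed at H3 or R1. Of 11 oligodendrocyte precursor markers 3 passed (27.3%), a share near the 23.6% of all probe sets. Among them Gpr17, a receptor of cells about to mature, changed by -0.35 at H3 (adjusted p = 0.00271) and by -0.69 at R1 (SE 0.09, adjusted p = 1.65e-10). No other gene of this list passed at H3 or R1, and the others ran at R1 from -0.07 (Cspg4) to 0.20 (Enpp6).

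Of 21 other myelin proteins 10 passed the averaged F-test (background 23.6%), with a median change between -0.03 and 0.07 at the 7 time points. Gpr37, a receptor of myelinating cells, was higher at R1 by 0.24 (SE 0.05, adjusted p = 0.000207), and Aspa, which splits N-acetylaspartate for lipid synthesis, changed by -0.20 at R3 (adjusted p = 0.0303) and was higher at R24 by 0.26 (adjusted p = 0.0158). Gjb1, a gap junction protein of the sheath, was higher at H3 by 0.39 (adjusted p = 0.0391) although its averaged F-test did not pass (adjusted p = 0.0618), and Pllp changed by -0.30 at R6 (adjusted p = 0.0256).

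Lists of other cell types passed the averaged F-test for 0 of 12 neuron markers, 6 of 10 astrocyte markers, 8 of 9 microglia markers, 7 of 10 endothelial and mural markers, 0 of 8 choroid plexus markers, 1 of 9 meninges markers, 1 of 7 ependyma markers and 2 of 4 peripheral myelin markers. Region markers passed for 0 of 8 in the cortex list, 3 of 9 in that of hippocampus, 1 of 9 in that of striatum, 1 of 10 in that of thalamus, 1 of 9 in that of midbrain, 0 of 9 in that of pons and medulla and 0 of 12 in that of cerebellum. The same test passed 23.6% of all probe sets. The median change of the neuron list lay between -0.04 and 0.05 at all 7 time points.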

How the data were processed

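RNA of 7 brain regions of 24 mice was measured on 3 arrays for each of 56 groups, and the intensity of 45101 probe sets per array, on a linear scale, was deposited by the authors. The submitters' processing notes name GCOS 1.3. The methods describe GCRMA, quantile normalization and division by the sham mean, which these values do not show: the trimmed mean of every array lay between 124.6 and 124.7. The 64 control probe sets were left out, 16 was added to each value and log2 was taken. Files were read with the R package data.table (version 1.17.8), and tests used R 4.3.3 with limma 3.58.1, fitted over all 45037 probe sets with Benjamini-Hochberg adjustment and a threshold of 0.05, and were tested on simulated data. Fits within a region used that region's arrays; fits averaged over regions and of region by time used all arrays. These and the control fit had the labelled number within a time point as a random block (duplicateCorrelation). Between 23.3% and 30.2% of values per array lay below 16, where precision is low, and the number of arrays limits it elsewhere. Values are given in full for the probe set of each gene with the highest mean and for member calls at single time points. The same holds for the largest and smallest ranges between regions. Of each other list at most 4 genes with the largest changes are named, except that more oligodendrocyte regulators are named. The 10 genes most like the members by Pearson r over the 56 group means are named as well. The members and lists were chosen with earlier results of these data known. Some genes of the lists were not analysed here. Alternatives were other pseudocounts, quantile normalization, arrays centred on their medians, brighter probe sets, limma's trend and robust options, 1 probe set per gene, replicates left out, a replicate block and the methods' t-test.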

Additional observations from a re-analysis of the deposited data

How the results depend on the processing

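None of the 21 named values below changed sign, but with the covariate some values near 0 that had not passed did, as Opalin at R3 (0.06 against -0.04). Of the 25 probe sets, 17 passed the averaged test, against 8 with quantile normalization, 9 to 11 without replicate 1, 2 or 3, 14 with the other myelin genes as a covariate and 20 with no replicate block; with 1 probe set for each gene, 5 of 9 passed it and 8 of 9 differed between control regions. The 4 pairs passing the F-test within a region became 1 with a pseudocount of 1, 2 with centred arrays, 2 with plain analysis of variance and 0 without replicate 1, 2 or 3. The 1 probe set called at any time point within a region became 0 with centred arrays, 0 with the methods' t-test, 2 among the brighter probe sets, and 0 to 1 without a replicate. The call at H3 became 0 with centred arrays and with the t-test, and that at R1 became 0 under both and 2 among the brighter probe sets; leaving out 1 replicate gave 0 to 1 at each. The causes of these shifts were not tested. With the replicate number as a replicate block the counts within a region stayed at 4 for the F-test and at 1 for any time point, H3 and R1, and a replicate block within each region, added after seeing the data as was the covariate, gave 18 averaged calls. The labels do not say that a number marks a mouse. Between regions at the same time the median r of deviations was 0.0751 with the same number (207 pairs over 0.1) and -0.0386 with another (65 pairs over 0.1), and between times of a region it was 0.14 with the same number (391 pairs over 0.1), and not every pair was over 0.1. Over 21 named values and 262 settings, 206 kept their side of the threshold, 51 lost it and 5 gained it. With 3 arrays per group, changes the size of most members' lie within the spread of a single region, and values below 16 carry little order.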
